A study of Mus musculus with 4 samples.

Results

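The genes described here are 39 genes of glycolysis and of the transcriptional response to low oxygen, read from RNA-seq counts of mouse lungs at embryonic day 17. They were chosen by gene symbol from a fixed list, and all 39 were found among the 45706 genes of the count table (*Ero1l* is also written *Ero1a*). The list was drawn up with earlier results of these data known, so contrasts with all genes are descriptions. They comprise 4 transporters, 17 glycolytic enzymes and regulators, 6 genes of the hypoxia inducible factor (HIF) and its oxygen sensing, and 12 other response genes. Left lobes of 2 *Myh10+/+* (wild-type) and 2 *Myh10-/-* (mutant) embryos were compared, all C57BL/6, untreated and at the same age. *Myh10* encodes the heavy chain of nonmuscle myosin II-B, and the *Myh10-/-* embryos were homozygous for the L458R allele, a missense change that came from a chemical mutagenesis screen and that every cell of the embryo carries. The litters of the embryos are not stated in the sources used here. The labels number the lungs of each genotype 1 and 2, and values below are given in that order, *Myh10+/+* first.

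Glycolysis splits glucose into pyruvate, and cells that cannot oxidize the pyruvate reduce it to lactate and export it. When oxygen is plentiful, prolyl hydroxylases of the Egln family mark the alpha subunits of HIF for destruction by the *Vhl* ubiquitin ligase. When oxygen is scarce the alpha subunits, encoded by *Hif1a* and *Epas1*, persist, pair with the *Arnt* subunit and bind short DNA motifs near genes for glucose uptake, glycolysis, mitophagy, pH control and blood supply. The fetal lung develops at low oxygen, and *Epas1* is needed there for vessels and for surfactant production. HIF is controlled mainly at the level of its protein, which RNA counts do not measure.

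HIF binds the core motif ACGTG or GCGTG, and the bases before the start sites of these genes were searched for it on both strands (RefSeq promoters, GRCm38.p6, 250 bases before each start). Promoters were listed for 35 of the 39 genes, and *Bnip3l*, *Epas1*, *Ndrg1* and *Slc2a3* had no entry. A core was present in 39 of their 48 promoters (81.2%), against 38.6% of all 32851 promoters and 52.0% of the promoters of tested genes. Many members were listed as genes of the response to low oxygen, so this contrast is not independent of the choice of list. Base composition was not matched between the sets. The E-box CACGTG, which contains ACGTG, was present in 12.5% of the members' promoters, in 6.02% of all promoters and in 7.63% of the promoters of tested genes. The stretches below, upstream of the start and free of annotated exons, are shown because they belong to the members that were called lower (*Ankrd37* and *Ddit4*), to a hexokinase and an oxygen sensor with lower values, and to *Ero1l*, whose counts were nearly equal between genotypes. Capitals mark the cores, written as CACGT or CACGC where the motif lies on the other strand.
*Ankrd37* (chr8:45999868-46000100, minus strand): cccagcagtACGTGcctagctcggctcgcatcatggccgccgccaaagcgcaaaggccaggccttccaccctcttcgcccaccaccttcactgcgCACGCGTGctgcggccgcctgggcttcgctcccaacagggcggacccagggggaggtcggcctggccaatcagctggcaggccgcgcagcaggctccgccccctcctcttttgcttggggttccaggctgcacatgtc
*Ddit4* (chr10:59951835-59952020, minus strand): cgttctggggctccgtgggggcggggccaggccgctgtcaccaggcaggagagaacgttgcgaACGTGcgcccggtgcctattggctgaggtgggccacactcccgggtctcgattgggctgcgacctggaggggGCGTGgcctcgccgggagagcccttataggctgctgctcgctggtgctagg
*Hk2* (chr6:82774455-82774704, minus strand): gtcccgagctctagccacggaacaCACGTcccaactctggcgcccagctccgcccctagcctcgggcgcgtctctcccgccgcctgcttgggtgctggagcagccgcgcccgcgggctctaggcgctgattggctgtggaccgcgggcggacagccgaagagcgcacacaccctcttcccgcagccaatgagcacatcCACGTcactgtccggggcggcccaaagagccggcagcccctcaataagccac
*Egln3* (chr12:54203875-54204124, minus strand): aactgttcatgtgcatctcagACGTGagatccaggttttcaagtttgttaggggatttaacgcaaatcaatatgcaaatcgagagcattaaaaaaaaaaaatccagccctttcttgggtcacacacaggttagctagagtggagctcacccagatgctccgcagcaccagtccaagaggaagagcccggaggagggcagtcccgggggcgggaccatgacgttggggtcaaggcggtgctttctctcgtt
*Ero1l* (chr14:45318573-45318702, minus strand): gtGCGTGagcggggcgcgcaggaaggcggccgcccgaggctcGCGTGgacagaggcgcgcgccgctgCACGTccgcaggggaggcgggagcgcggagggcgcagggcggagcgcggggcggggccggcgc
These stretches hold 3 cores in *Ankrd37*, of which 2 overlap on opposite strands, 2 in *Ddit4*, 2 in *Hk2*, 1 in *Egln3* and 3 in *Ero1l*. In these stretches *Ero1l* carried as many cores as *Ankrd37*. In the full 250 bases *Ankrd37* had 4 cores, with a further core 6 bases before the start and past the stretch shown, and *Ero1l* had 3. The RefSeq start of *Ankrd37* lies inside the longer GENCODE model of the gene. Across the members, the 31 genes with a core in any promoter had a median log2 fold change of -0.12 (*Myh10-/-* over *Myh10+/+*) and the 4 without (*Vhl*, *Tpi1*, *Gpi1* and *Car12*) had -0.14. A match is a description of letters and does not show a bound site.

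The lungs had between 19116971 and 32055306 counted reads, and replicate lungs differed by more than sampling noise. Levels are given as CPM, the counts of a lung scaled to a common library size after TMM normalization. The test was the quasi-likelihood F-test of edgeR on every gene averaging 5 counts or more (18763 genes), adjusted by Benjamini-Hochberg, and a gene was called at an adjusted p under 0.05. A missense change need not alter the amount of a transcript, so counts of *Myh10* cannot check the labels. The Y-linked and *Xist* counts showed an embryo of each sex in each genotype, the sexes being crossed against the lung numbers. *Xist* was at 3916 and 1.84 CPM in wild type and at 4.10 and 4457 CPM in mutants. *Myh10+/+* lung 1 and *Myh10-/-* lung 2 were thus female. Lung markers were abundant in every library: *Nkx2-1*, the lung epithelial transcription factor, was at 434 to 455 CPM and *Sftpc*, a surfactant protein of alveolar type II (AT2) cells, was at 3876 to 5815 CPM.

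Of the 39 genes, *Ankrd37* and *Ddit4* were called lower in *Myh10-/-* lungs and none was called higher. The DESeq2 Wald test, an alternative, called these genes and also *Ndrg1* and *Hk1* lower, and 0 higher. It left 2 members without an adjusted p. Over all 18763 genes that test called 258 lower and 85 higher. By edgeR 5.13% of the members were called lower. Of all genes tested, edgeR called 1.34% lower, 0.298% higher and 1.64% in either direction. All 39 passed the count minimum, with mean counts between 80.5 (*Adm*) and 10214 (*Pkm*). The log2 fold changes ran from -0.57 (*Ankrd37*) to 0.19 (*Car9*), and 33 of 39 (84.6%) were below 0, beside 49.5% of all genes. Their median was -0.13 and that of all genes was 0.00. An unadjusted p under 0.05 was reached by 16 members, all with lower values (41.0%, beside 9.02% of all genes on the lower side and 7.52% on the higher side). In 23 members (59.0%) both *Myh10-/-* lungs lay below both *Myh10+/+* lungs, as in 24.3% of all genes, and in 3 members (7.69%) both lay above, as in 23.9%. Well-counted genes are called more readily. Among genes averaging 500 counts or more, 2 of 33 members were called lower (6.06%, beside 2.22% of all such genes), 15 had lower values at an unadjusted p under 0.05 (45.5%, beside 12.4%), and 21 had both mutant lungs below both wild-type lungs (63.6%, beside 29.5%).

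**Figure D1:**
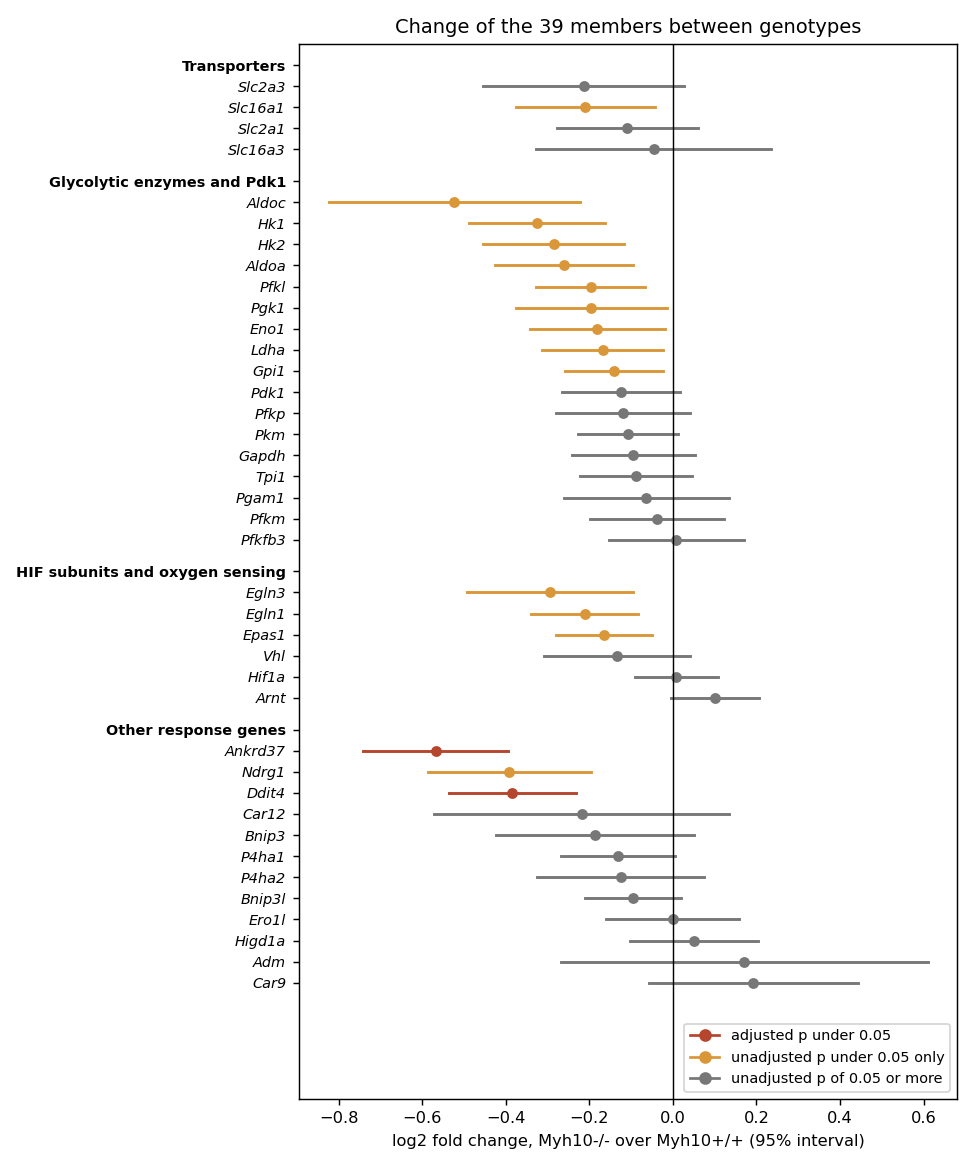
Log2 fold change of each of the 39 genes, *Myh10-/-* over *Myh10+/+* (points, with 95% intervals from the edgeR fit; 2 lungs per genotype), in 4 groups by role. *Ankrd37* at -0.57 and *Ddit4* at -0.38 pass an adjusted p of 0.05, 14 more genes pass an unadjusted p of 0.05 only, and 33 of the 39 points lie to the left of 0.

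For these genes the wild-type lungs differed from each other by nearly as much as the genotypes did. The members were higher in *Myh10+/+* lung 2 than in *Myh10+/+* lung 1 (30 of 39 genes, median log2 ratio 0.11), while all genes had a median of -0.00 for the same ratio. Between the *Myh10-/-* lungs the members had a median ratio of 0.01. Against *Myh10+/+* lung 1 alone, the mean of the *Myh10-/-* lungs had a median log2 ratio of -0.09 with 29 of 39 genes below 0, and against *Myh10+/+* lung 2 alone it was -0.20 with 33 of 39 below 0. The number of members called depended on which lungs were used. Without *Myh10+/+* lung 2 it was 1 (*Ankrd37*), beside 191 of all genes. Without *Myh10+/+* lung 1 it was 6 (*Ankrd37*, *Ddit4*, *Ndrg1*, *Egln3*, *Aldoa* and *Aldoc*), beside 310 of all genes. Without *Myh10-/-* lung 1 it was 5 (*Ankrd37*, *Ddit4*, *Ndrg1*, *Hk1* and *Epas1*), beside 306 of all genes. Without *Myh10-/-* lung 2 it was 11 (*Ankrd37*, *Ddit4*, *Ndrg1*, *Hk1*, *Hk2*, *Aldoa*, *Aldoc*, *Pfkl*, *Egln1*, *Egln3* and *Bnip3*), but the genes called over all genes rose with it, from 308 with every lung to 1826. Over the fits that each left out 1 lung, the median log2 fold change of the members ran from -0.198 to -0.0903. Such fits take the lone lung to vary like the other genotype, and they leave the sexes unbalanced between genotypes. The lungs of each genotype also differed in sex, so differences between lungs and between sexes cannot be told apart.

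**Figure D2:**
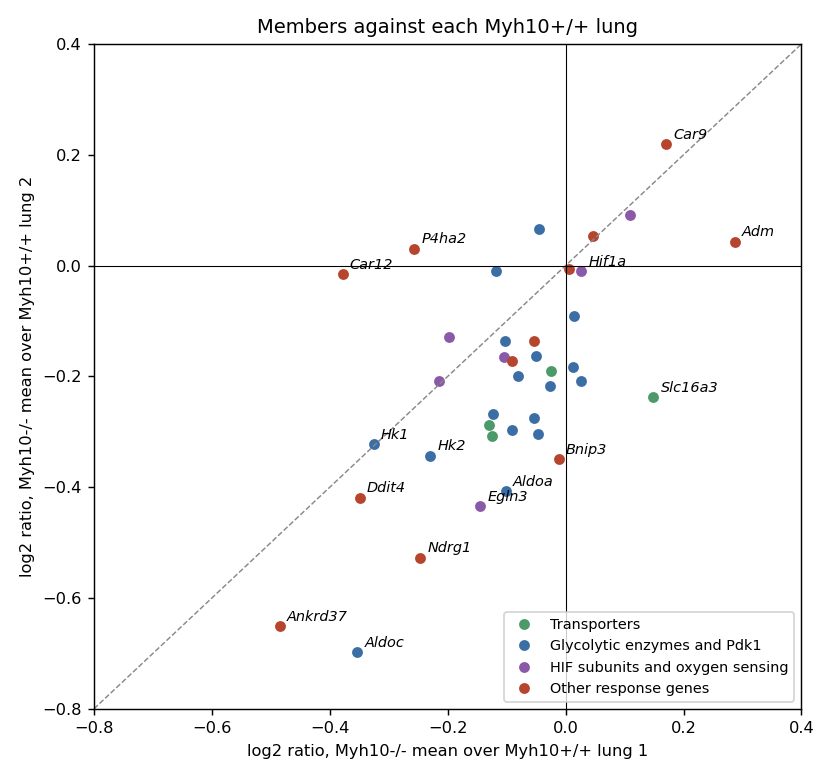
Log2 ratio of the mean of the 2 *Myh10-/-* lungs to *Myh10+/+* lung 1 (horizontal) and to *Myh10+/+* lung 2 (vertical), a point per gene, coloured by role, with the line of equal ratios dashed. *Ankrd37*, *Ddit4*, *Hk1* and *Hk2* lie below 0 on both axes, and the median of all members is -0.09 against lung 1 and -0.20 against lung 2.

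Other measured features, the markers of cell types, were lower in mutants for some lists and not for others. Markers of alveolar type I (AT1) cells, the flat gas-exchange cells, were called lower in 6 of 6 genes, and their summed level was 1776 to 1820 CPM in wild type against 1187 to 1399 CPM in mutants. Of AT2 markers 4 of 6 were called lower (summed 7652 to 8004 against 5444 to 6393 CPM), and of general epithelial markers 2 of 6, *Krt8* and *Cdh1* (1884 to 1895 against 1640 to 1697 CPM). Of heart muscle markers 3 of 4 were called lower (summed 183 and 234 CPM against 147 and 134 CPM), with the atrial gene *Nppa* at 1 or 2 counts in every lung. Of erythroid markers 2 of 7 were called lower (4274 and 5368 against 3772 and 4286 CPM). Both of these sums, like most members, were higher in *Myh10+/+* lung 2 than in lung 1. So were the sums of club, smooth muscle, mesenchymal, ciliated and neuroendocrine markers. Those of epithelial, AT1, AT2, endothelial, leukocyte and dividing-cell markers were lower in *Myh10+/+* lung 2. No mesenchymal marker of 7 was called, with 1 lower at an unadjusted p under 0.05 (4548 and 4683 against 4606 and 4457 CPM), and of 6 genes of dividing cells none was called, with 5 having higher values at an unadjusted p under 0.05. Club cell markers were called lower in 2 of 3 genes and leukocyte markers in 1 of 5 (*Lyz2*), and none of 5 smooth muscle, 4 ciliated and 4 neuroendocrine markers was called, with 0, 2 and 0 lower at an unadjusted p under 0.05. In whole lobes, fewer cells of a type and less RNA per cell cannot be told apart. The part of these features in the members' values was not tested.

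Glucose and lactate transporters were lower in value in *Myh10-/-* lungs, and none of the 4 was called. *Slc2a1*, the main glucose importer of fetal tissue, had 53.5 and 59.9 CPM in wild-type lungs, against 52.4 and 52.7 CPM in mutant lungs. The *Myh10-/-* lungs lay just below the lower wild-type lung (log2 fold change -0.11, standard error 0.08, adjusted p = 0.522). *Slc16a1*, a monocarboxylate carrier that moves lactate and pyruvate, was at 61.5 and 68.6 CPM against 55.0 and 57.4 CPM. Its groups did not overlap, and its log2 fold change of -0.21 had an unadjusted p of 0.0174 (adjusted p = 0.191). *Slc2a3*, a glucose importer of high affinity, was at 9.20 to 11.5 CPM with no overlap (-0.21, adjusted p = 0.360), and the lactate exporter *Slc16a3* was at 9.60 to 12.6 CPM with overlap. Per exon length, *Slc2a1* supplied 91.5% to 92.2% of the summed level of *Slc2a1* and *Slc2a3* in every lung, and *Slc16a1* supplied 86.1% to 88.5% of that of *Slc16a1* and *Slc16a3*.

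Glycolytic enzymes had 16 of 17 log2 fold changes below 0, beside 49.5% of all genes tested. Of the 17, 9 had lower values at an unadjusted p under 0.05, beside 9.02% of all genes. None of these enzymes was called in the edgeR fit described above. Their group median was -0.14. Per kilobase of exon, the 16 enzymes (*Pdk1* aside) summed to 521 and 595 CPM in wild type and to 502 and 500.3 CPM in mutants. The log2 ratio of the means was -0.15, beside a spread within genotypes of 0.10 (SD on the same scale), and *Myh10-/-* values lay close to *Myh10+/+* lung 1.

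The hexokinases, which trap glucose in the cell, had lower values in both mutant lungs. *Hk1* had 55.8 and 55.7 CPM in wild-type lungs, against 46.2 and 42.9 CPM in mutant lungs. Its log2 fold change of -0.32 (standard error 0.07) had an adjusted p of 0.0543, and the wild-type lungs were nearly equal. *Hk2*, the hexokinase induced by HIF, was at 32.9 and 35.6 CPM against 27.1 and 29.0 CPM (-0.29, standard error 0.08, adjusted p = 0.0910). Neither gene overlapped between genotypes. *Hk1* was called in the fits without a *Myh10-/-* lung (adjusted p = 0.0135 and 0.0396) and not in those without a *Myh10+/+* lung (0.0976 and 0.171). With all 4 lungs its call depended on the settings. Of 11 alternative fits 8 called it, among them edgeR with robust = TRUE (adjusted p = 0.0223), with no filter on low counts (0.00890) and with a GC and length offset (0.0397), and the DESeq2 Wald test (0.0234). The other 3 were other scalings and a stricter filter (0.0547 to 0.0602).

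At the upper steps that follow no gene was called. *Gpi1*, the glucose phosphate isomerase, was at 138 and 149.7 CPM against 130.2 and 131 CPM (-0.14, adjusted p = 0.217). *Pfkl*, the liver-type phosphofructokinase, was at 116 and 128 CPM against 105 and 108 CPM (-0.20, adjusted p = 0.128). These groups did not overlap, while *Pfkm*, the muscle type, overlapped (52.0 to 55.9 CPM, -0.04) and *Pfkfb3*, which makes an activator of phosphofructokinase, was at 51.0 to 55.1 CPM with a log2 fold change of 0.01. *Pfkp*, the platelet type, was at 30.1 to 33.9 CPM without overlap (-0.12, adjusted p = 0.448). As a share of the 3 phosphofructokinases per exon length, *Pfkl* made up 49.1% and 49.96% in wild type and 46.4% and 47.6% in mutants. With 2 lungs against 2, the exact permutation test (two-sided) cannot go below p = 0.333, the value it gave here.

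The aldolases split the doubly phosphorylated sugar. *Aldoa* had 230.1 and 284 CPM in wild-type lungs, against 213 and 216 CPM in mutant lungs. Its *Myh10-/-* lungs were close to each other and to *Myh10+/+* lung 1 (-0.26, standard error 0.08, adjusted p = 0.112). Without *Myh10+/+* lung 1 the log2 fold change of *Aldoa* was -0.41 (adjusted p = 0.00179), and without *Myh10+/+* lung 2 it was -0.10 (adjusted p = 0.726). *Aldoc*, a minor aldolase here, had the second lowest log2 fold change of the 39 genes, -0.52 (standard error 0.14, adjusted p = 0.0847). It was at 10.3 and 13.0 CPM against 7.30 and 8.76 CPM, with the largest relative gap between the *Myh10-/-* lungs among the members, and it made up 3.83% and 3.92% of aldolase per exon length in wild type and 2.96% and 3.50% in mutants.

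At the lower steps no enzyme was called. *Gapdh*, often used as a reference gene, was at 159 and 187 CPM against 166 and 158 CPM, so its groups overlapped (log2 fold change -0.09, 95% interval -0.24 to 0.05, adjusted p = 0.522), and without *Myh10+/+* lung 2 its log2 fold change was 0.03. *Pgk1*, the next enzyme and a standard HIF readout, was at 50.9 and 58.8 CPM against 47.1 and 48.6 CPM (-0.20, adjusted p = 0.263). *Eno1* (enolase) was at 121 and 144 CPM against 120.2 and 114 CPM (-0.18, adjusted p = 0.244). *Ldha*, which makes lactate, was at 371 and 432 CPM against 352 and 363 CPM (-0.17, adjusted p = 0.230). In *Ldha*, *Eno1* and *Pgk1* the groups did not overlap but the gap to *Myh10+/+* lung 1 was narrow. *Pdk1*, the mitochondrial kinase that inhibits pyruvate dehydrogenase and so the making of acetyl-CoA from pyruvate, was at 109 and 124 CPM against 108 and 106 CPM (-0.12, adjusted p = 0.364). *Tpi1*, *Pgam1* and *Pkm* had log2 fold changes between -0.11 and -0.06, none with an unadjusted p under 0.05. *Ldha* was 77.4% to 79.4% of *Ldha* and *Ldhb* per exon length, with overlap between genotypes.

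Reads that align to several places were left out of the counts, and many of these enzymes have processed pseudogenes. Of 75-base windows along the transcript, 67.5% in *Pgk1*, 65.4% in *Eno1*, 46.3% in *Bnip3*, 40.6% in *Pgam1*, 34.3% in *Higd1a*, 22.8% in *Gapdh*, 19.6% in *Pkm* and 18.7% in *Bnip3l* also occurred in another gene. The levels of these 8 genes may be too low by an unknown amount and are uncertain. In *Higd1a*, *Bnip3* and *Pkm* some windows were shared with a gene that overlaps the same place (Gm47112, Gm45507 and Gm49759). Among the other 31 members, 2 were called, 14 had an unadjusted p under 0.05, and the median log2 fold change was -0.14. Whether reads were counted by strand is not given in the sources used here. If strand was ignored, reads over exons shared with an antisense gene hit several genes and were dropped. Exons of another gene lay on the opposite strand over 748 bases of *Pfkp*, 741 of *Gpi1*, 683 of *Higd1a*, 556 of *Ndrg1*, 504 of *Bnip3*, 406 of *Ankrd37*, 330 of *Hif1a*, 214 of *Car9*, 157 of *Hk1* and 105 of *Slc2a1*, and over 18 to 68 bases in *Aldoa*, *Gapdh*, *Pfkm* and *Tpi1*. The counts of these genes carry that uncertainty. On the same strand, exons of another gene lay over 767 bases of *Pkm*, 341 of *Pfkm* and 148 of *Hif1a* in GENCODE vM21. Reads there may have been dropped whether or not strand was used. Antisense to *Gpi1*, Gm26762 was at 0.698 to 0.945 CPM, and antisense to *Hk1*, Hk1os was at 0.590 to 1.15 CPM.

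**Figure D3:**
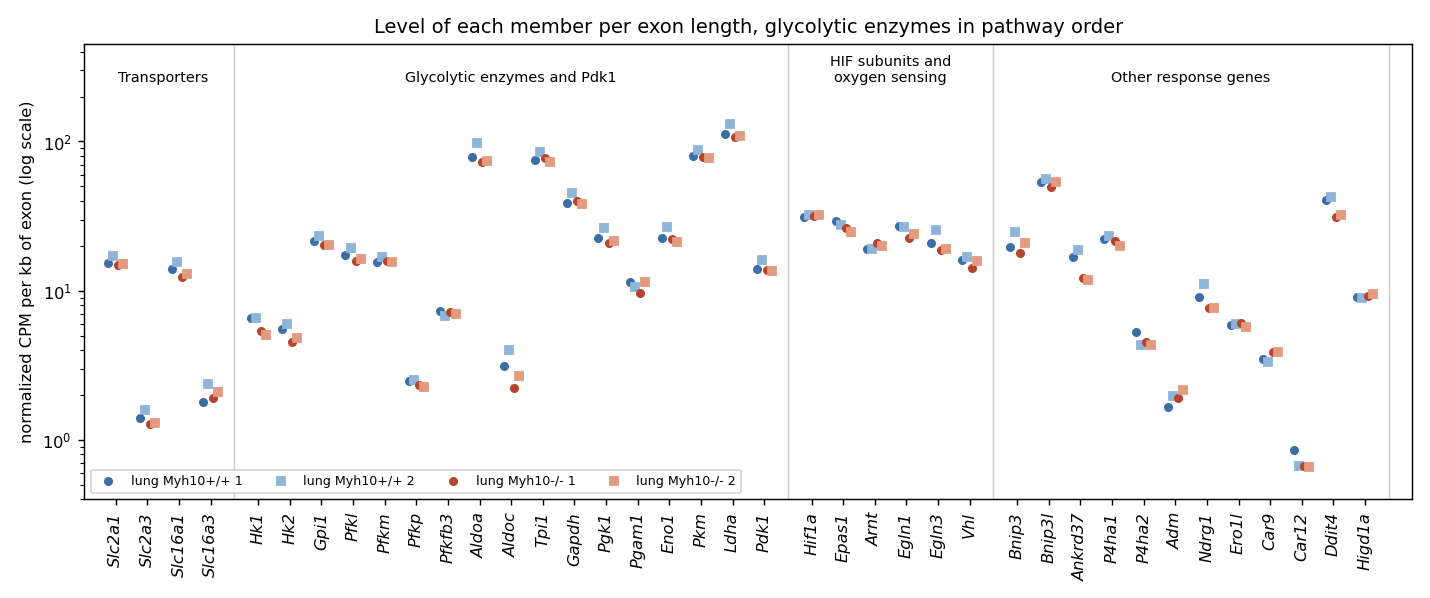
Normalized CPM per kilobase of exon (log scale) of each gene in each of the 4 lungs (circles for lung 1, squares for lung 2; blue for *Myh10+/+*, red for *Myh10-/-*), with the enzymes in pathway order. *Ldha* is highest at a *Myh10+/+* mean of 121 and *Car12* lowest at 0.766, a range far wider than any difference between genotypes.

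Per kilobase of exon, *Ldha* had the highest level of the 39 genes in *Myh10+/+* lungs (121 ± 13.1 CPM per kilobase, SD, n = 2), followed by *Aldoa* (88.4 ± 13.2), *Pkm* (83.8 ± 4.64) and *Tpi1* (80.2 ± 7.64). The neighbours *Aldoa*, *Pkm* and *Tpi1* did not differ beyond their spread. Next came *Bnip3l* (54.9 ± 2.21), *Gapdh* (41.8 ± 4.78), *Ddit4* (41.4 ± 1.42) and *Hif1a* (31.7 ± 0.570). The lowest were *Adm* (1.83 ± 0.217), *Slc2a3* (1.49 ± 0.134) and *Car12* (0.766 ± 0.135).

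None of the HIF subunits was called. *Hif1a* had 185 and 189.5 CPM in wild-type lungs, against 188 and 189 CPM in mutant lungs. All 4 lungs lay within a narrow range, and the 95% interval of its log2 fold change of 0.01 ran from -0.09 to 0.11. *Epas1*, the alpha subunit of endothelium and AT2 cells, was at 163 and 155 CPM against 146 and 138 CPM, with no overlap (-0.16, standard error 0.05, adjusted p = 0.144). Per exon length, *Hif1a* made up 51.8% and 53.7% of the summed level of *Hif1a* and *Epas1* in wild type and 54.9% and 56.5% in mutants (exact permutation p = 0.333, the smallest possible). *Arnt*, the common partner, was at 152 and 154 CPM against 167 and 161 CPM, higher in both *Myh10-/-* lungs (0.10, standard error 0.05, adjusted p = 0.325). Of 6 endothelial markers 1 was called lower (*Cldn5*), and 4, *Cldn5* among them, had lower values at an unadjusted p under 0.05. All 6 log2 fold changes of these markers were below 0, with a median of -0.13. Their summed level was 1356 to 1408 CPM in wild type against 1248 to 1277 CPM in mutants.

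Among the genes that sense oxygen, both prolyl hydroxylases had lower values. *Egln1*, the hydroxylase that sets HIF stability in most cells, had 97.0 and 96.6 CPM in wild-type lungs, against 81.5 and 85.8 CPM in mutant lungs. The wild-type lungs nearly coincided and lay above both *Myh10-/-* lungs (-0.21, standard error 0.06, adjusted p = 0.0988). *Egln3*, itself a strong HIF target, was at 55.5 and 67.8 CPM against 49.6 and 50.8 CPM (-0.30, standard error 0.09, adjusted p = 0.132). Without *Myh10+/+* lung 1 the log2 fold change of *Egln3* was -0.43 (adjusted p = 0.0191), and without *Myh10+/+* lung 2 it was -0.15 (adjusted p = 0.706). *Vhl* was at 48.4 and 50.5 CPM against 42.6 and 47.5 CPM, without overlap (-0.13, adjusted p = 0.438). None of the 6 genes of this group was called. Lower values at an unadjusted p under 0.05 were found in 3 of them (*Egln3*, *Egln1* and *Epas1*), beside 9.02% of all genes.

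The 2 called members belong to the other response genes. *Ankrd37*, an ankyrin repeat protein known as a HIF target, had 25.9 and 29.0 CPM in wild-type lungs, against 18.7 and 18.3 CPM in mutant lungs. The lowest wild-type lung lay well above both *Myh10-/-* lungs. *Ankrd37* (ENSMUSG00000050914, chromosome 8, 45996902 to 46005707, minus strand, GRCm38) fell by 32.5% (95% interval -40.2% to -23.9%), which is -0.57 on the log2 scale (standard error 0.08, adjusted p = 0.00897). It was called in the fits without any lung in turn, with log2 fold changes of -0.65 to -0.49 and adjusted p up to 0.0315. Of its 1539 exonic bases 406 overlap exons of *Ufsp2* or *Lrp2bp* on the opposite strand. Neither neighbour was called: *Ufsp2* was at 48.7 to 51.5 CPM (log2 fold change 0.05, adjusted p = 0.778) and *Lrp2bp* at 3.19 to 4.67 CPM (-0.06, adjusted p = 0.928).

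*Ddit4* encodes REDD1, an inhibitor of the growth kinase complex mTORC1 that is induced by low oxygen and by glucocorticoids. It had 70.9 and 74.4 CPM in wild-type lungs, against 54.6 and 56.6 CPM in mutant lungs. *Ddit4* (ENSMUSG00000020108, chromosome 10, 59949669 to 59951834, minus strand, GRCm38) fell by 23.4% (95% interval -31.0% to -14.9%), which is -0.38 on the log2 scale (standard error 0.07, adjusted p = 0.0199). No exon of another gene overlaps it. Without *Myh10+/+* lung 2 its log2 fold change was -0.35 and its adjusted p 0.0639.

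*Ndrg1*, a stress-induced gene widely used to read out hypoxia, had 60.0 and 72.9 CPM in wild-type lungs, against 50.5 and 50.7 CPM in mutant lungs. The *Myh10-/-* lungs were nearly equal, whereas the wild-type lungs lay further apart than the lower of them lay from the mutants. Its log2 fold change of -0.39 (standard error 0.09) had an adjusted p of 0.0519, and without *Myh10+/+* lung 2 it was -0.25 (adjusted p = 0.361). Of the 11 alternative fits with all 4 lungs 8 called *Ndrg1*, among them the DESeq2 Wald test (adjusted p = 0.00810), edgeR with robust = TRUE (0.0163) and edgeR with a GC and length offset (0.0419), and the other 3 gave 0.0542 to 0.0550. Of its 6596 exonic bases 556 overlap exons of Gm2895 or Gm17035 on the opposite strand, and Gm2895 was at 0.108 to 0.368 CPM.

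**Figure D4:**
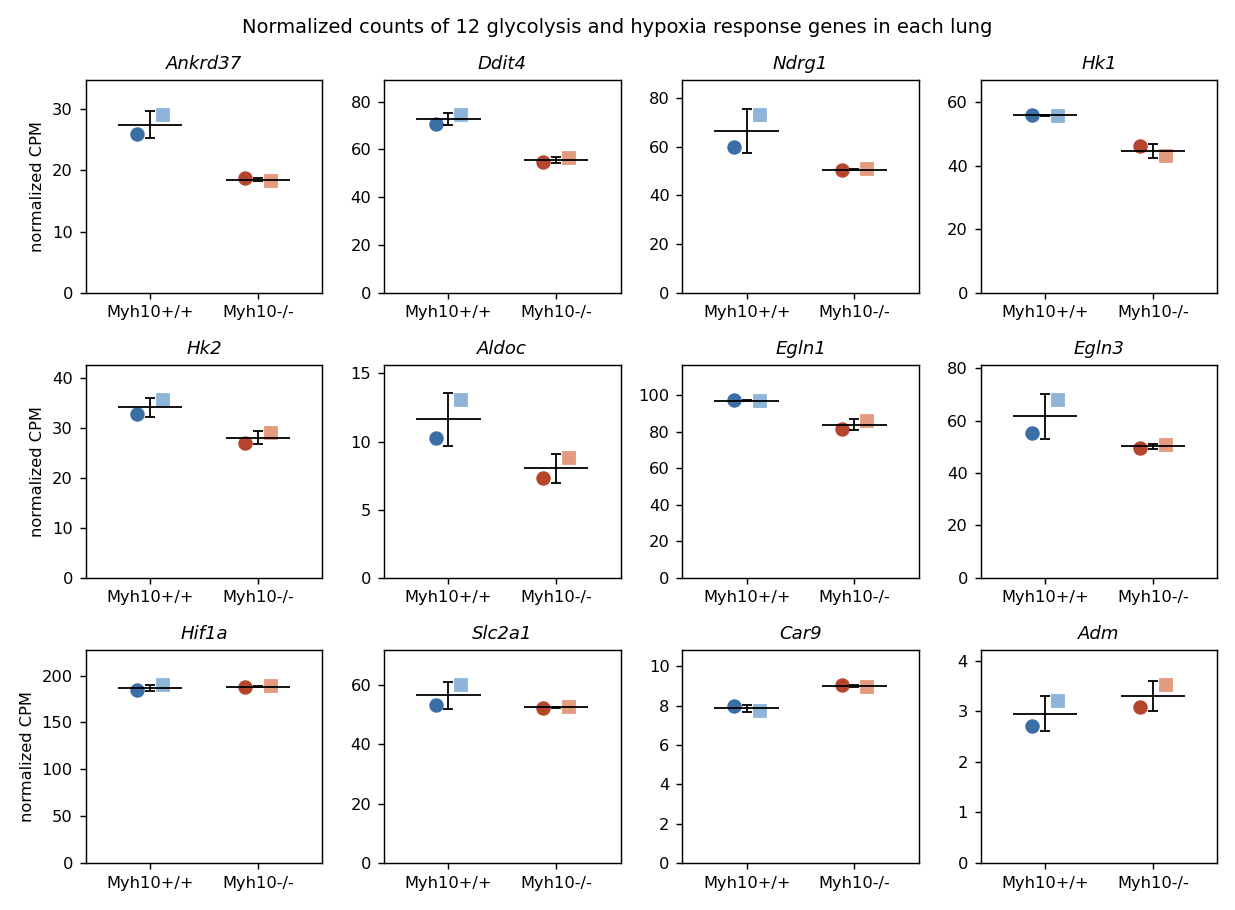
Normalized CPM of 12 of the genes in each lung (circles for lung 1, squares for lung 2; blue for *Myh10+/+*, red for *Myh10-/-*), with the mean (line) and SD (bars) of the 2 lungs per genotype; each panel starts at 0. *Ankrd37*, *Ddit4*, *Ndrg1*, *Hk1*, *Hk2*, *Aldoc*, *Egln1* and *Egln3* are lower in both *Myh10-/-* lungs than in either *Myh10+/+* lung, *Hif1a* stays between 185 and 189.5, and *Car9* is higher in both *Myh10-/-* lungs.

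No other response gene was called. *Bnip3*, a mitophagy receptor, was at 44.3 and 56.0 CPM against 40.6 and 47.3 CPM, with overlap (-0.19, adjusted p = 0.425), and its relative *Bnip3l* at 190.2 to 218 CPM (-0.10). *Car9*, a membrane carbonic anhydrase that is among the most HIF-specific genes, was at 7.99 and 7.72 CPM against 9.02 and 8.95 CPM. Both *Myh10-/-* lungs were higher, and the log2 fold change of 0.19 (standard error 0.12) had an adjusted p of 0.437. *Car9* overlaps exons of *Gm12454* on the opposite strand over 214 of 2304 bases, and *Gm12454* was at 3.41 to 4.67 CPM. Its paralog *Car12* was at 4.97 to 6.55 CPM with a log2 fold change of -0.22, so that *Car9* made up 80.1% and 83.3% of the pair per exon length in wild type and 85.4% and 85.6% in mutants. *Adm*, the vasodilator peptide adrenomedullin, was at 2.71 and 3.20 CPM against 3.09 and 3.51 CPM. Its 61 to 113 counts per lung were the fewest of the members, and the interval of its log2 fold change of 0.17 ran from -0.27 to 0.61.

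The collagen prolyl hydroxylases *P4ha1* (82.5 to 96.3 CPM, -0.13, no overlap) and *P4ha2* (27.0 to 33.1 CPM, -0.12, overlap) were not called. *Higd1a*, a protein of the inner mitochondrial membrane, was at 27.4 to 28.7 CPM with a log2 fold change of 0.05 and higher values in both *Myh10-/-* lungs. *Ero1l*, the oxidase that forms disulfides in the endoplasmic reticulum, was at 31.2 and 31.4 CPM against 32.2 and 30.4 CPM. Its log2 fold change was -0.00, with a 95% interval from -0.16 to 0.16. Summed per kilobase of exon, the 12 other response genes came to 188 and 202 CPM in wild type and to 166 and 172 CPM in mutants, a log2 ratio of -0.20 beside an SD within genotypes of 0.06.

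Of the 11 sets of paralogs compared, 6 had a share that did not overlap between genotypes, where single genes did so in 24.3% (lower) and 23.9% (higher) of all genes tested, and in none could the exact permutation test reach p under 0.05. The shares of *Hk1* against *Hk2* (50.9% to 54.4% *Hk1*), *Egln1* against *Egln3* (51.4% to 56.4% *Egln1*), *P4ha1* against *P4ha2* (80.6% to 84.3% *P4ha1*) and *Bnip3* against *Bnip3l* (26.7% to 30.4% *Bnip3*) overlapped.

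Genes of the same and connected pathways outside the 39 were read from the same fit. Of 33 other glycolysis genes none was called and 5 had lower values at an unadjusted p under 0.05 (median log2 fold change -0.10). The lowest p among them belonged to *Pklr*, a pyruvate kinase of liver and red cells, at 0.288 to 0.917 CPM (-1.34, adjusted p = 0.134) and *Bsg*, the chaperone of lactate carriers, at 819 and 883 CPM against 659 and 751 CPM (-0.27, adjusted p = 0.137). Of 14 genes of pyruvate entry to mitochondria and its conversion there 1 was called. *Pcx*, the pyruvate carboxylase, fell from 66.2 and 66.0 CPM to 42.3 and 48.4 CPM (-0.54, standard error 0.08, adjusted p = 0.00961). Of 27 glycogen genes 2 were called. *Pygl*, a glycogen phosphorylase, fell from 183 and 179 CPM to 149 and 155 CPM (-0.25, adjusted p = 0.0253), and *Pgm2*, of the phosphoglucomutase family, fell from 101 and 108 CPM to 78.4 and 88.6 CPM (-0.32, adjusted p = 0.0406). None of 8 pentose phosphate genes was called, with *Pgd* (130.5 and 131 CPM against 114 and 121 CPM, -0.16) and *Tkt* (214 and 217 CPM against 191 and 207 CPM, -0.12) lower in value at an unadjusted p under 0.05. Of 4 gluconeogenesis genes (*Pck2* at 57.2 to 64.7 CPM, -0.08, and *G6pc3* at 18.8 to 21.1 CPM, 0.06) 0 were called and 0 reached that p. Of 17 nuclear genes of the citric acid cycle 0 were called and 3 were lower in value at that p. *Ogdh* was at 165 and 166 CPM against 143 and 149 CPM (-0.18, adjusted p = 0.0910), and *Mdh2* at 131 and 129.6 CPM against 112 and 117 CPM (-0.19, adjusted p = 0.0958).

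Of 22 further HIF regulators none was called, with 3 lower and 1 higher at an unadjusted p under 0.05. *Arnt2*, the relative of *Arnt*, was at 34.8 and 36.8 CPM against 45.9 and 41.8 CPM (0.29, standard error 0.08, adjusted p = 0.0950), and *Os9* at 122 and 117 CPM against 108 and 109 CPM (-0.13). Of 60 other hypoxia response genes 4 were called, all lower, with 15 lower and 3 higher at an unadjusted p under 0.05 and a median of -0.06. They were *Nos2*, the inducible nitric oxide synthase (19.7 and 19.4 CPM against 12.9 and 14.2 CPM, -0.52, adjusted p = 0.0137), *Mt1*, a metallothionein (33.5 and 37.7 CPM against 24.01 and 26.9 CPM, -0.48, adjusted p = 0.0196), *Cp*, the copper carrier ceruloplasmin (63.4 and 65.6 CPM against 45.2 and 51.7 CPM, -0.41, adjusted p = 0.0288), and *Selenbp1*, a selenium-binding protein (253 and 284 CPM against 190.0 and 219.9 CPM, -0.39, adjusted p = 0.0199). *Ndufa4l2*, a HIF-induced relative of a cytochrome oxidase subunit, was the called gene of 5 in the oxidase switch. It fell from 53.8 and 58.0 CPM to 42.6 and 43.8 CPM (-0.37, standard error 0.08, adjusted p = 0.0326). *Epo*, the red cell hormone, had 0 to 2 counts per lung and was not tested.

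**Figure D5:**
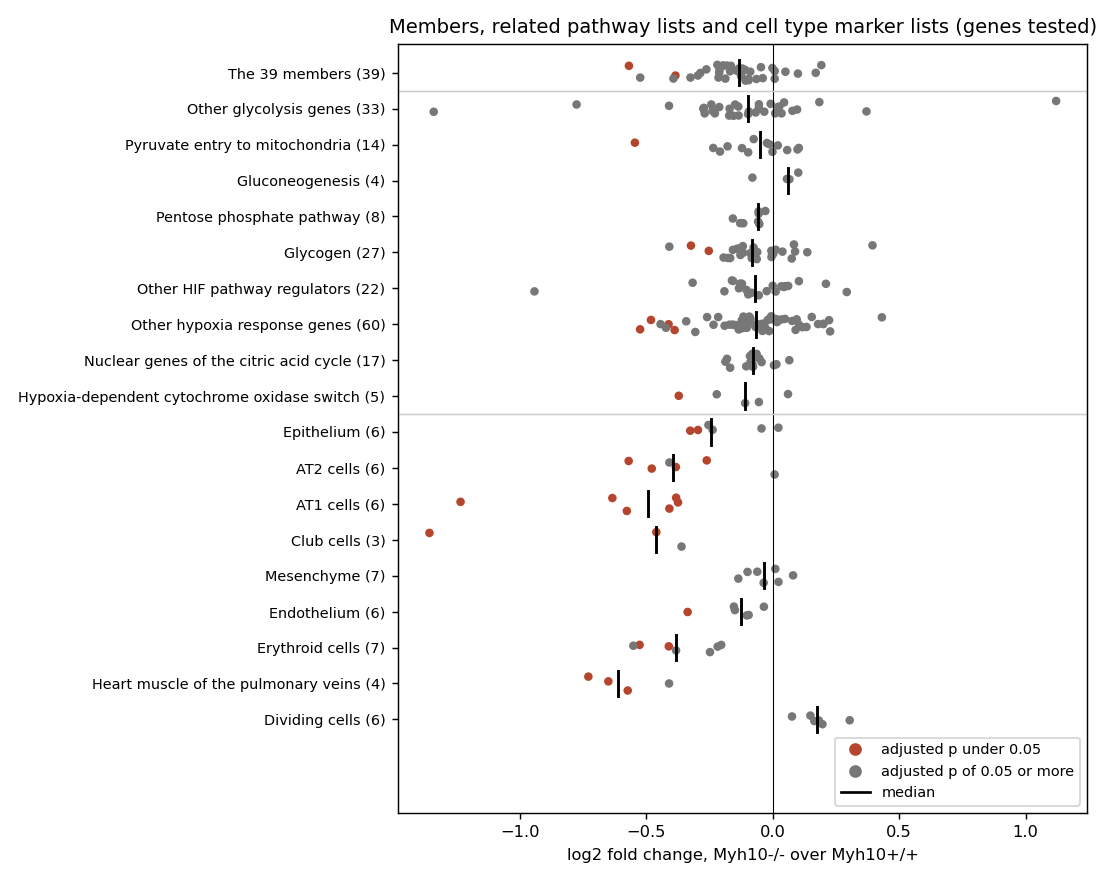
Log2 fold change, *Myh10-/-* over *Myh10+/+*, of the 39 genes (top row), of genes of connected pathways (middle) and of cell type markers (bottom), a point per tested gene with the median as a bar; red points pass an adjusted p of 0.05. The members have a median of -0.13, other glycolysis genes -0.10, other hypoxia response genes -0.06, AT1 markers -0.49, AT2 markers -0.40 and mesenchymal markers -0.04.

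By role, the median log2 fold change was -0.16 for the transporters and -0.14 for the enzymes with *Pdk1*. It was -0.15 for the HIF subunits and oxygen sensors and -0.13 for the other response genes. In that order, 1 of 4, 9 of 17, 3 of 6 and 3 of 12 had lower values at an unadjusted p under 0.05. The share was 9.02% over all genes tested and 12.4% among genes averaging 500 counts or more.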

How the data were processed

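Left lung lobes of 2 *Myh10+/+* and 2 *Myh10-/-* embryos had been sequenced as stranded mRNA libraries. The authors deposited a table of whole-number read counts per Ensembl gene without any scaling. They had used Reaper for trimming, STAR 2.4.0a for alignment to GRCm38 and featureCounts 1.5.1 for counting on exons, and had dropped reads that hit several genes or places. Whether strand was used in counting is not stated. The members and all gene lists were chosen with earlier results of these data known. Counts were tested with edgeR 4.0.16 (TMM, glmQLFit with robust = FALSE, glmQLFTest) on genes averaging 5 counts or more, with Benjamini-Hochberg adjustment, after the code had been tested on simulated data. Exon lengths, overlaps and 75-base windows came from GENCODE vM21, which holds 45143 of the 45706 IDs. Paralog shares were compared with an exact permutation test. Total counts per lung were 23156026, 19116971, 27573824 and 32055306, and the number of lungs limits the precision more than counting error does. Lungs with the same number share only that number, so they were not treated as pairs.

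Genes named with their values are the called members, members with an unadjusted p under 0.05, the HIF subunits and oxygen sensors, 10 usual readouts of the pathway and the 3 largest fold changes among members averaging 50 counts or more, and in each further list the called genes or else the 2 with the lowest p. Neighbours on the opposite strand were named after their values were seen. Alternatives were other scalings (DESeq2 size factors, library totals), filters, robust = TRUE, the Wald test of DESeq2 1.42.0, a GC and exon length offset (loess, span 0.3), replicate blocks, genes off chromosomes X, Y and MT, an adjusted p of 0.1 and leaving out each lung.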

Additional observations from a re-analysis of the deposited data

How the results depend on the processing

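Lungs of the same number deviated from their genotype means with a correlation across genes of -0.214. Without chromosomes X, Y and MT the correlation was -0.0187. It was -0.718 over genes averaging 250 counts or more, a set that still held the genes of those chromosomes. With the replicate number as a block 710 genes and 7 members (*Ankrd37*, *Ddit4*, *Hk1*, *Hk2*, *Aldoa*, *Aldoc* and *Ndrg1*) were called in place of 308 and 2. Pairing lung 1 of one genotype with lung 2 of the other, which joins embryos of the same sex and was chosen after the data had been seen, called 415 genes and 4 members (*Ankrd37*, *Ddit4*, *Hk1* and *Ndrg1*). Genes called numbered 1162 with no filter on low counts, 474 with robust = TRUE and 343 with the DESeq2 Wald test. They numbered 379 without chromosomes X, Y and MT, 426 with the GC and length offset and 680 with the replicate block and that offset. At an adjusted p of 0.1 they numbered 696. Members called lower numbered 9 with no filter, 4 with robust = TRUE, with the DESeq2 Wald test, without chromosomes X, Y and MT and with the GC and length offset (in each of these *Hk1* and *Ndrg1* were added), 6 with block and offset, and 7 at an adjusted p of 0.1. The cause of these moves was not tested. *Ankrd37* and *Ddit4* were among the called members in every fit with all 4 lungs, and no member was called higher in any fit. Scaling by library totals moved the share of lower genes among those called from 81.8% to 67.6% and the median of all genes from 0.00 to 0.02. Leaving out each lung gave 191 to 1826 genes called, 1 to 11 members called lower, 8 to 19 members at an unadjusted p under 0.05 and a member median of -0.198 to -0.0903.

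Several log2 fold changes close to 0 changed sign. *Ero1l* was at 0.00 with DESeq2 size factors, filterByExpr, no filter, the DESeq2 Wald test and without chromosomes X, Y and MT (0.000325, 0.000619, 0.00305, 0.000341 and 0.000688) and at 0.0193 with library totals. With the GC and length offset, and with block and offset, *Hif1a* was at -0.0652 and -0.0655 and *Pfkm* at 0.0159 and 0.0161. With each lung left out, the ranges were -0.0395 to 0.0423 for *Ero1l*, -0.208 to 0.0257 for *Gapdh*, -0.0102 to 0.0265 for *Hif1a*, -0.257 to 0.0299 for *P4ha2*, -0.0454 to 0.0657 for *Pfkfb3*, -0.0914 to 0.0140 for *Pfkm*, -0.189 to 0.0495 for *Pgam1*, -0.236 to 0.1504 for *Slc16a3* and -0.183 to 0.0115 for *Tpi1*. The call of *Ddit4* was lost without *Myh10+/+* lung 2 (adjusted p = 0.0639).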
